A study of Mus musculus with 8 samples.

Results

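SR proteins and hnRNP proteins are the RNA-binding proteins that decide which splice sites and exons of a pre-mRNA are used. Members of this set were the protein-coding autosomal genes whose mouse symbol starts with Srsf and a digit or with Hnrnp, which gave 30 of the 27453 genes in the deposited tables, 11 SR and 19 hnRNP genes. Hnrnph2 was left out because it lies on the X chromosome. The data are nanopore direct RNA reads of polyadenylated liver RNA from 8 C57BL/6JN mice, an inbred laboratory strain, 4 titled O and 4 titled Y. Replicates 1 and 2 of each group are males and replicates 3 and 4 females. By the age field the O-titled mice were 12 weeks old and the Y-titled mice 80 weeks, whereas the series text contrasts young mice of about 2 months with old mice of about 18 months, so groups are named by their titles and which is the older is not settled here. The labels describe no other treatment and give the tissue as liver.

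SR proteins bind exonic enhancers through RNA recognition motifs and recruit the spliceosome with domains of repeated serine and arginine, which kinases of the SRPK and CLK families phosphorylate. The hnRNP proteins coat nascent transcripts and often oppose SR proteins at the same exons. Many of both families hold their own amount constant by splicing their pre-mRNA into forms that are degraded, through poison exons or retained introns. In mouse liver, loss of Srsf3 from hepatocytes is known to impair their maturation.

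The exons whose choice separates the known protein forms are printed here because the isoform results below turn on them. Each lies on mm10 in GENCODE release M21, is read from the transcript sequence 5′ to 3′, and is a multiple of 3 nt long. Capitals mark the alternative exon and lower case the 12 nt of its neighbours in the spliced transcript.
Hnrnpd 147 nt exon (chr5:99963731-99963877, minus strand): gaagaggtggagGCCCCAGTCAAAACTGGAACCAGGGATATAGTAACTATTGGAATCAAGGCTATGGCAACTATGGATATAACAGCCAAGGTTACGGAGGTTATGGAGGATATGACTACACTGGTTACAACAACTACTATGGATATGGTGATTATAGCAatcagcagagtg
Hnrnpd 57 nt exon (chr5:99976534-99976590, minus strand): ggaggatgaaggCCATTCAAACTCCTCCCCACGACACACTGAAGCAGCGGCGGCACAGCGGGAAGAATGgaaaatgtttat
Hnrnpa2b1 36 nt exon (chr6:51467391-51467426, minus strand): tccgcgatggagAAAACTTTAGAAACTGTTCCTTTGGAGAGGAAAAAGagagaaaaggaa
Hnrnpab 141 nt exon (chr11:51601750-51601890, minus strand): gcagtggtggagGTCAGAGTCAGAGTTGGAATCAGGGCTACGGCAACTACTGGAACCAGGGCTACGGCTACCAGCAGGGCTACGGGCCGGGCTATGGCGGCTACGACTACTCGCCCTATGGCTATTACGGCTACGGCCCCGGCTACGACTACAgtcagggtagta
The first and second give the AUF1 protein forms of Hnrnpd, and the 36 nt exon separates hnRNP B1, which has it, from hnRNP A2. The 141 nt exon lengthens the glycine-rich tail of Hnrnpab.

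Libraries held 2593200, 792004, 1094237 and 1369069 mapped reads in the O-titled and 1722220, 545171, 1112758 and 1148108 in the Y-titled group, and the 30 genes together drew 18841 reads, between 0.164 and 0.193% of the mapped reads of a library. Expression is given in counts-per-million (CPM), here of mapped reads. Hepatocyte markers (4 of 4 with reads) summed to between 66800 and 91861 CPM in O-titled livers, against between 61821 and 106143 CPM in Y-titled livers. Summed stellate cell and fibroblast markers, 6 of 6 with reads, ranged from 201 to 283 CPM in O-titled livers, against 138 to 191 CPM in Y-titled livers, and macrophage markers, 8 of 8 with reads, from 388 to 1254 CPM in O-titled livers, against 433 to 565 CPM in Y-titled livers. B cell markers, 3 of 3 with reads, ranged from 7.58 to 11.9 CPM in O-titled livers, against 5.23 to 7.34 CPM in Y-titled livers. These B cell sums rest on few reads, since 3 reads make 5.50 CPM in the shallowest library. The summed markers of the 5 other cell types examined overlapped between the groups. The part of these markers in the results below was not tested. In bulk tissue, fewer cells of a type and less RNA per cell cannot be told apart.

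The hnRNP genes dominated, with 78.1% of the summed mean level of the set, and 6 hnRNP genes alone carried 51.9%. From here on a level is a CPM over the reads of tested genes with TMM scaling, edgeR's correction for library composition. Each read is 1 molecule, so a level is not divided by gene length. Summed over the SR genes the level was 394 ± 21 CPM in O-titled livers, against 411 ± 28.0 CPM in Y-titled livers (mean ± SD, n = 4 each). Summed over the hnRNP genes it was 1413 ± 62.7 CPM in O-titled livers, against 1457 ± 51.4 CPM in Y-titled livers. The 29 genes with reads spanned a 24.1-fold range of mean level, and only 2 of the 28 neighbouring pairs in the order of mean level, Hnrnpu above Srsf5 and Srsf2 above Hnrnpa1, kept their order in all 8 libraries. Srsf12 was not detectable at this depth, with 0 reads in each library. Taking 3 reads as the limit, its level could reach 1.16 CPM of mapped reads in the deepest library and 5.50 CPM in the shallowest.

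**Figure D1:**
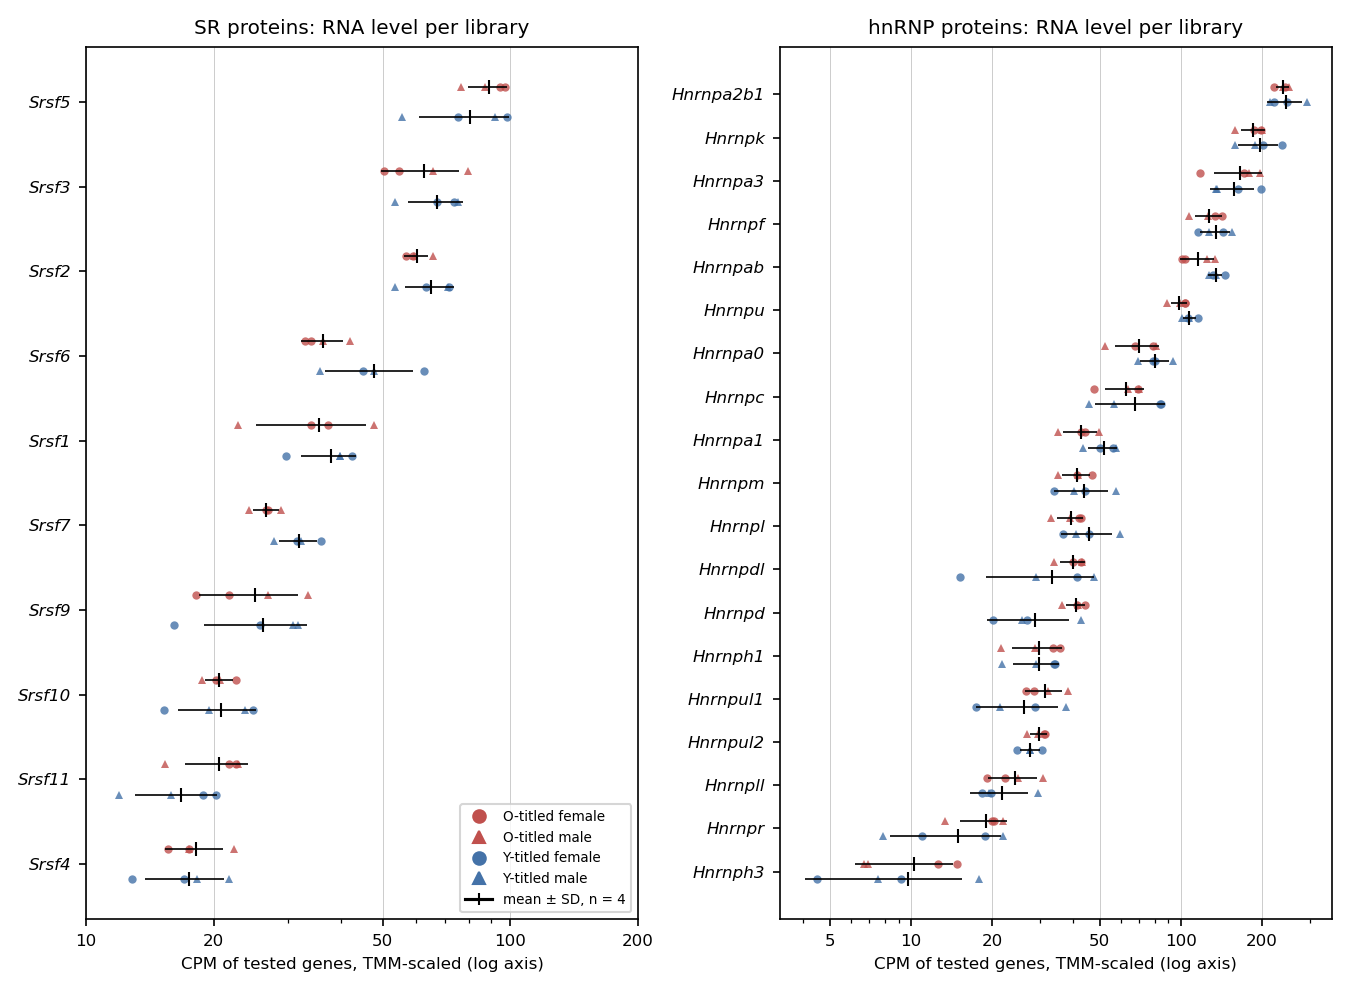
RNA level of the 29 SR and hnRNP genes with reads, in CPM of tested genes on a log axis, 1 point per library with the mean ± SD of each group (n = 4). The O-titled and Y-titled points overlap for every gene, and Hnrnpa2b1 leads with 241 CPM over all libraries.

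No SR or hnRNP gene passed the test between O-titled and Y-titled livers. With edgeR's quasi-likelihood test and Benjamini-Hochberg adjustment over 6759 genes, 0 of the 29 tested genes passed an adjusted p of 0.05, where 271 genes (4.01%) passed over the whole table. DESeq2 and limma voom also called 0 of them. The unadjusted p was under 0.05 for Hnrnpd and Srsf6 (2 of 29) with edgeR and limma voom and for 0 with DESeq2, against 16.2% of all genes tested with edgeR. The median log2 fold of the 29 genes was -0.024 (-0.020 over the 10 SR and -0.024 over the 19 hnRNP genes), beside a median of -0.00095 over all tested genes, and the median size of the change was 0.12 in the set against 0.19 over all tested genes. The 95% interval of the change lay within 2-fold for 28 of 29 genes and within 1.5-fold for 19. In 0 of 29 genes were the O-titled values all above or all below the Y-titled ones, against 8.71% of all tested genes. The spread between libraries was close to that of other genes, with a median biological coefficient of variation of 0.125 in the set and 0.127 over all tested genes.

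**Figure D2:**
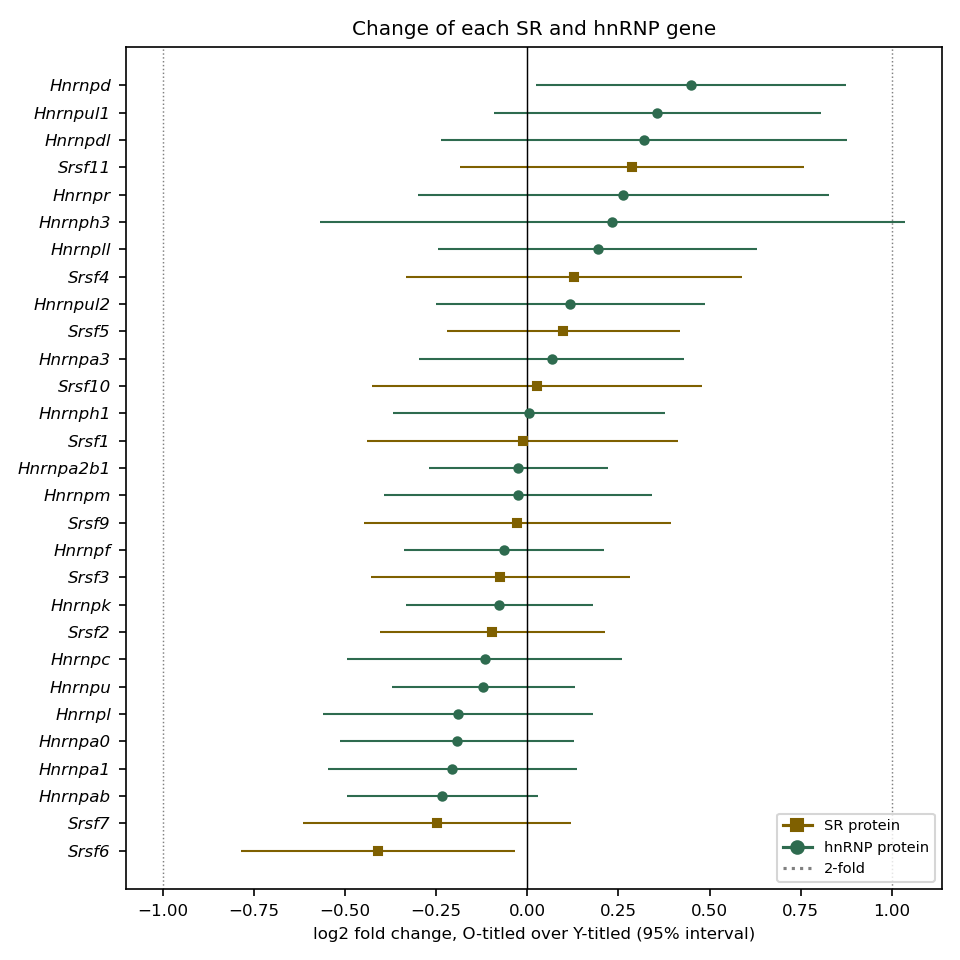
log2 fold change of each of the 29 tested genes, O-titled over Y-titled, with its 95% interval from the edgeR fit, sorted by size, with dotted lines at 2-fold. Changes run from -0.41 for Srsf6 to 0.45 for Hnrnpd, and the intervals of these 2 genes alone leave out 0.

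Among the SR genes, Srsf5, Srsf3 and Srsf2 were the most abundant. Srsf5, also called SRp40, had 76.5, 87.3, 97.2 and 94.5 CPM in O-titled livers, against 91.9, 55.4, 98.3 and 75.4 CPM in Y-titled livers. Srsf3, the smallest SR protein, which couples splicing to export, had 79.6, 65.8, 50.4 and 54.6 CPM in O-titled livers, against 53.5, 75.2, 67.1 and 73.6 CPM in Y-titled livers. Srsf2, known as SC35 and used as a marker of nuclear speckles, had 59.2, 65.8, 59.0 and 56.7 CPM in O-titled livers, against 53.5, 71.3, 63.4 and 71.8 CPM in Y-titled livers. In each of the 3 genes the groups overlapped, and the log2 folds were 0.099, -0.075 and -0.096, with adjusted p values of 0.827, 0.896 and 0.827.

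Srsf6, or SRp55, gave the lowest log2 fold of the set in this fit. It had 41.9, 36.3, 33.9 and 32.9 CPM in O-titled livers, against 47.8, 35.6, 62.5 and 44.9 CPM in Y-titled livers (log2 fold -0.41, SE 0.178, edgeR adjusted p = 0.252). Its O-titled females were the lowest libraries and Y-titled replicate 3 the highest, while the males of both groups overlapped. Over the alternatives its log2 fold ran from -0.55 without O-titled replicate 1 to -0.15 after thinning all libraries to the depth of the shallowest, where Hnrnpl (-0.62) and Srsf3 (-0.58) were lower. Srsf1, the founding SR protein once called SF2, had 47.7, 22.8, 33.9 and 37.1 CPM in O-titled livers, against 39.7, 39.6, 42.3 and 29.6 CPM in Y-titled livers, and O-titled replicate 2 was the lowest of all 8. Srsf7, which carries a zinc knuckle beside its RNA recognition motif, had 28.8, 24.2, 26.9 and 26.6 CPM in O-titled livers, against 32.1, 27.7, 35.8 and 31.4 CPM in Y-titled livers (log2 fold -0.25, SE 0.175, edgeR adjusted p = 0.542). Its groups met at their edges only, with O-titled replicate 1 above Y-titled replicate 2. Srsf11, an SR protein first described as p54, had 15.4, 22.8, 22.6 and 21.7 CPM in O-titled livers, against 12.0, 15.8, 20.2 and 18.8 CPM in Y-titled livers and a log2 fold of 0.29 (edgeR adjusted p = 0.599). The remaining Srsf4, Srsf9 and Srsf10, the last of which represses splicing when dephosphorylated, had mean levels from 17.9 to 25.6 CPM and log2 folds from -0.028 to 0.13.

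Of the hnRNP genes, the A and B type proteins bind RNA with paired recognition motifs and a glycine-rich tail. Hnrnpa2b1, the most abundant gene of the set, had 239, 251, 243 and 221 CPM in O-titled livers, against 214, 293, 248 and 222 CPM in Y-titled livers. Hnrnpa3 had 196, 179, 172 and 118 CPM in O-titled livers, against 137, 135, 198 and 162 CPM in Y-titled livers. Hnrnpa1, a repressor of exon inclusion with many processed copies in the genome that could share its reads, had 49.6, 34.9, 42.5 and 44.1 CPM in O-titled livers, against 43.4, 57.4, 56.0 and 50.3 CPM in Y-titled livers. The log2 folds were -0.024, 0.068 and -0.21, none past the threshold. Hnrnpab had 125, 134, 103 and 101 CPM in O-titled livers, against 135, 127, 145 and 131 CPM in Y-titled livers (log2 fold -0.23, SE 0.125, edgeR adjusted p = 0.387), and both O-titled females were below every other library. Hnrnpa0, a gene of a single exon, averaged 70.0 ± 13.0 CPM in O-titled livers, against 80.3 ± 9.80 CPM in Y-titled livers.

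Hnrnpk, which binds cytosine-rich RNA with KH domains, had 199, 159, 198 and 186 CPM in O-titled livers, against 188, 158, 202 and 238 CPM in Y-titled livers. Hnrnpf, which binds runs of guanosines, had 126, 107, 142 and 134 CPM in O-titled livers, against 127, 154, 116 and 143 CPM in Y-titled livers. Hnrnpu, the scaffold attachment factor of chromatin, had 99.6, 88.7, 103 and 104 CPM in O-titled livers, against 108, 101, 116 and 106 CPM in Y-titled livers. For these 3 abundant genes the groups overlapped and the log2 folds were -0.076, -0.064 and -0.12, with 95% intervals that reached at most -0.37 on the low side.

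Hnrnpd, the AU-rich element binding protein AUF1 that controls mRNA decay, gave the highest log2 fold of the set in this fit. It lies on chromosome 5 from 99955935 to 99978938 on mm10 and had 41.5, 36.3, 44.3 and 41.3 CPM in O-titled livers, against 42.8, 25.7, 20.2 and 26.9 CPM in Y-titled livers (log2 fold 0.45, SE 0.202, edgeR adjusted p = 0.271). The O-titled libraries lay close together, whereas Y-titled replicate 1, the deepest of its group, reached the O-titled range and the other Y-titled libraries fell below it. The log2 fold was 0.80 with an adjusted p of 0.0526 without Y-titled replicate 1, and 0.30 with an adjusted p of 0.602 without Y-titled replicate 3. After thinning all libraries to the shallowest depth it was 0.97, and it passed under none of the 15 alternatives. The related Hnrnpdl had 33.8, 43.0, 39.9 and 42.7 CPM in O-titled livers, against 29.0, 47.5, 41.3 and 15.3 CPM in Y-titled livers, with the lowest value in Y-titled replicate 4 (log2 fold 0.32, SE 0.258, edgeR adjusted p = 0.619). Hnrnpul1, a nuclear protein related to Hnrnpu, had 38.1, 32.2, 28.6 and 26.6 CPM in O-titled livers, against 21.4, 37.6, 17.5 and 28.7 CPM in Y-titled livers (log2 fold 0.36, SE 0.213, edgeR adjusted p = 0.447). The remaining Hnrnpc, Hnrnph1, Hnrnph3, Hnrnpl, Hnrnpll, Hnrnpm, Hnrnpr and Hnrnpul2 had log2 folds between -0.19 and 0.26.

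No SR or hnRNP gene passed the test between females and males. In the same edgeR fit 200 of 6759 genes (2.96%) passed an adjusted p of 0.05 between females and males, and 0 of the 29 were among them. DESeq2 called 0 as well, and Srsf9 was the 1 gene with an unadjusted p under 0.05 by either tool, against 12.3% of all genes with edgeR. Srsf9, the SR protein SRp30c, had 21.7 and 18.2 CPM in O-titled and 25.7 and 16.2 CPM in Y-titled females, against 33.4 and 26.9 CPM in O-titled and 30.8 and 31.7 CPM in Y-titled males (log2 fold -0.62, SE 0.20, edgeR adjusted p = 0.134). Hnrnph1, which binds runs of guanosines, had 35.6, 33.6, 34.0 and 34.1 CPM in females and 28.8, 21.5, 29.0 and 21.8 CPM in males (log2 fold 0.36, edgeR adjusted p = 0.422). In both genes all females lay on 1 side of all males, which made 2 of 29 genes (6.90%), close to the 6.52% of all tested genes whose sexes did not overlap.

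Within each sex, the fit with 4 groups of sex and title called 0 of the 29 genes in females, where 370 of all tested genes (5.47%) passed, and 0 in males, where 85 (1.26%) passed. The unadjusted p was under 0.05 for 4 of 29 genes in females, against 16.5% of all tested genes, and for Hnrnpa3 alone in males, against 9.45%. Hnrnpd gave a log2 fold of 0.85 in females (edgeR adjusted p = 0.0751) and 0.088 in males. Srsf6 gave -0.68 in females and -0.13 in males, Hnrnpc -0.51 and 0.32, and Hnrnpab -0.44 and -0.028.

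The change itself differed between the sexes in 26 of 6759 genes (0.385%) and in 0 of the 29. Unadjusted p values under 0.05 for that difference came from Hnrnpa3, Hnrnpc, Hnrnph3 and Srsf3, 4 of 29 against 8.46% of all tested genes. Hnrnpa3 had a log2 fold of -0.32 in females and 0.47 in males (difference -0.79, SE 0.258, edgeR adjusted p = 0.318). Hnrnpc, whose tetramers bind runs of uridines, had 47.7 and 69.3 CPM in O-titled and 84.5 and 83.5 CPM in Y-titled females, against 63.8 and 69.9 CPM in O-titled and 56.6 and 45.5 CPM in Y-titled males (difference -0.83, edgeR adjusted p = 0.41). Srsf3 had 50.4 and 54.6 CPM in O-titled and 67.1 and 73.6 CPM in Y-titled females, against 79.6 and 65.8 CPM in O-titled and 53.5 and 75.2 CPM in Y-titled males. Hnrnph3 went the other way, with a log2 fold of 0.99 in females and -0.59 in males (difference 1.57, SE 0.696, edgeR adjusted p = 0.554). Over the 29 genes, 15 differences were above 0. Each sex holds 2 libraries per title, and Hnrnph3, the least abundant gene with reads, rests on 5 to 18 reads per library.

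**Figure D3:**
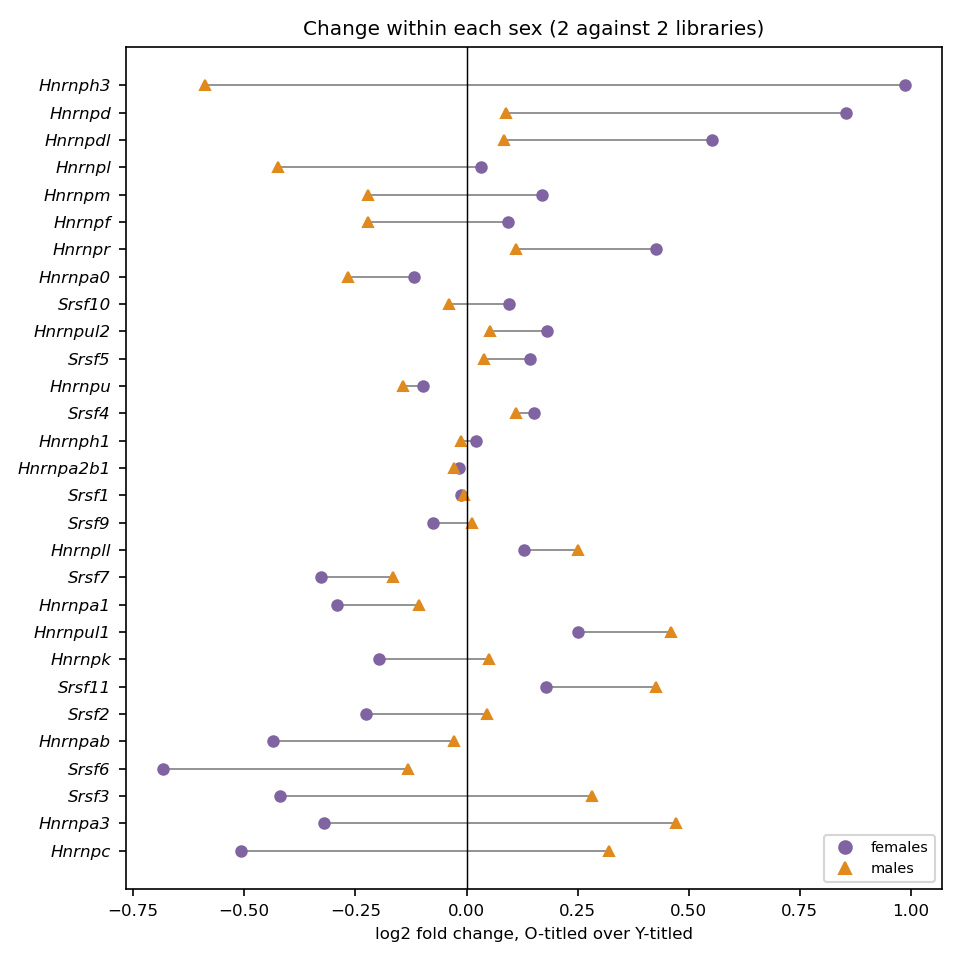
log2 fold change, O-titled over Y-titled, of each of the 29 tested genes in females (circles) and in males (triangles), 2 libraries of each title per sex, sorted by the difference between the sexes. Hnrnpc, Hnrnpa3 and Srsf3 lie below 0 in females and above 0 in males, and Hnrnph3 the other way with the largest difference. Of the 29 differences 15 are above 0, and none passed the adjusted test.

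Isoforms were assigned from reads that cover only part of most transcripts. Direct RNA reads start at the poly(A) tail, and the mean read length of a gene ran from 882 nt for Hnrnpl to 1686 nt for Hnrnpr. As a share of the mean length of the annotated transcripts that the reads were assigned to, this was 89.3% for Srsf5. It was 17.7% at the lowest, for Hnrnpr, with a median of 48.6% over the 29 genes. For Hnrnpr 70 of 191 reads were assigned to a transcript of 21452 nt. The share compares lengths and is not coverage, since reads on Hnrnpa3-207 averaged 1370 nt against a transcript of 1074 nt. Mean reads were longer in Y-titled libraries for 25 of 29 genes. The same count was not made over all genes, so it is not read as a trait of this set. The mean over all reads of a library ran from 1156 to 1223 nt in O-titled and from 1168 to 1235 nt in Y-titled libraries. An exon further from the 3′ end than the read length is reached by a part of the reads. Distances given below are those in the carrying transcript where the exon lies nearest the 3′ end. By this shortest distance 13 of the 24 exon choices below lie beyond the mean length of the reads that report on them. That count is a lower bound, since other carrying transcripts can place an exon further away.

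**Figure D4:**
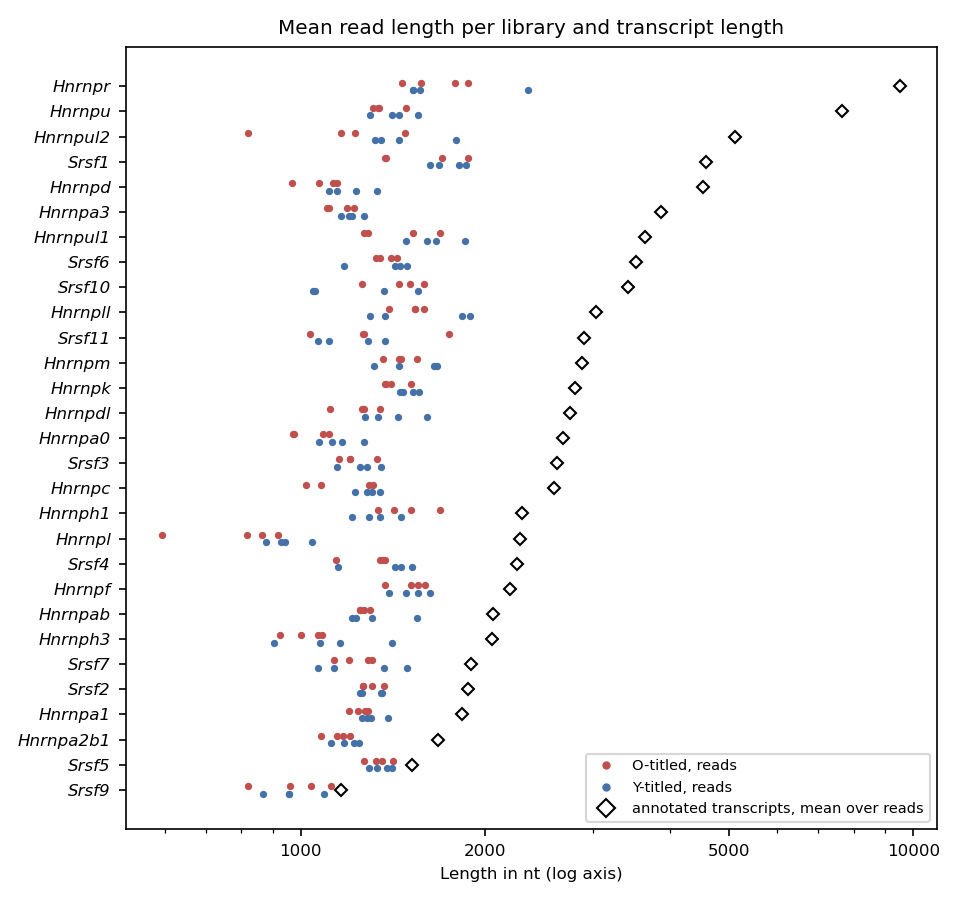
Mean length of the reads of each of the 29 genes in each library, in nt on a log axis, with the mean length of the annotated transcripts they were assigned to (open diamonds), sorted by transcript length. Transcript lengths spread more widely than read lengths, and the mean read length was 89.3% of the mean transcript length for Srsf5 and 17.7% for Hnrnpr.

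All 93 transcripts listed for the set are annotated as protein coding. GENCODE M21 holds 277 transcripts of the 30 genes, of which 35 in 19 genes are annotated as targets of nonsense-mediated decay, the pathway that degrades mRNAs with an early stop, and 75 in 22 genes as retained introns. Those were not analysed here. Of the listed transcripts, 87 had at least 15 reads over all libraries, and 21 genes had at least 2 of them. Hnrnpa0, Hnrnpdl, Hnrnpu, Hnrnpul2, Srsf3, Srsf4, Srsf6 and Srsf9 had 1 transcript with that many reads each.

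No gene passed the test of transcript usage between O-titled and Y-titled livers. With diffSpliceDGE of edgeR and Simes adjusted p values, 0 of 1236 tested genes (0%) passed 0.05 and 8 (0.647%) had an unadjusted p under 0.05. That is well under the share of 0.05 that a calibrated test gives without any change, so the test was conservative on these counts. Its 0 calls do not show that transcript usage is unchanged. All 12 tested genes of the set had an adjusted p of 1.00, the lowest unadjusted p being 0.391 for Hnrnpc. Hnrnpd was not among the 12. The gene-level F test and limma diffSplice also called 0 genes.

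Exon choice was described as a share of reads, namely those on transcripts that carry an exon, or the longer form of a splice site, among the reads on transcripts that carry it or skip it. Transcripts with another structure at that place were left out, which for 10 of the choices set aside some of the gene's reads. There were 24 such choices in 15 genes of the set with at least 10 reads on both forms together in every library. Choices of 1 gene share its reads, and a read that stops short of an exon was assigned to a transcript in the authors' counting. The mean share was lower in O-titled livers for 17 choices and higher for 7, with differences from -8.54 to 5.27 percentage points. Directions were not counted over all genes, so these 2 counts are not read as a tendency of the set. The median size of the difference was 1.98 points in the set, beside 2.48 points over all genes. The groups did not overlap for 1 of the 24, or 4.17%, beside 3.52% of 1535 choices over all genes.

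That 1 choice was the 147 nt exon of Hnrnpd, the first of the printed exons, in a gene whose reads averaged 1130 nt. In the carrying transcript where it lies nearest, it is 434 nt from the 3′ end. Of the 278 reads assigned to transcripts with it, 207 were on Hnrnpd-211, of 6811 nt, and 71 on Hnrnpd-203, of 1670 nt. How many of them reach the exon was not tested. The choice has no test of usage behind it. The exon was carried by 69.4, 70.4, 70.6 and 71.2% of reads in O-titled livers, against 79.4, 76.9, 72.7 and 86.7% of reads in Y-titled livers. All O-titled shares lay below all Y-titled ones, with means of 70.4% ± 0.723 in O-titled livers, against 78.9% ± 5.85 in Y-titled livers. The shares rested on 108, 27, 51 and 59 reads in O-titled and 68, 13, 22 and 30 reads in Y-titled libraries. The lowest Y-titled value was the one from 22 reads, where assigning 1 read to the form without the exon instead would end the separation. At such counts the small O-titled SD is not a measure of precision. The 57 nt exon of Hnrnpd, 1397 nt from the 3′ end, was carried by 78.7, 66.7, 64.7 and 78.0% of reads in O-titled livers, against 75.0, 76.9, 77.3 and 70.0% of reads in Y-titled livers, and the groups overlapped. The 147 nt difference was named after its values were seen and ran from -10.6 to -5.96 points when 1 library was left out. Since the groups did not overlap, its sign could not change in that check, which therefore adds no support.

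The 36 nt exon that makes hnRNP B1 was carried by 38.9, 32.6, 32.5 and 36.7% of reads in O-titled livers, against 34.4, 44.6, 43.3 and 38.1% of reads in Y-titled livers. Its mean was 35.2% ± 3.16 in O-titled livers, against 40.1% ± 4.73 in Y-titled livers, and the ranges overlapped. The choice rested on 148 or more assigned reads in each library, but the exon lies 1536 nt from the 3′ end and the mean read was 1171 nt long, so part of these reads stop short of it. The 120 nt exon of the same gene stood at 85.5% ± 2.58 in O-titled livers, against 85.7% ± 2.53 in Y-titled livers.

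The 141 nt exon of Hnrnpab was compared between Hnrnpab-203, which has it as an exon of its own, and Hnrnpab-201, which skips it, 544 of the gene's 1270 reads. Among these the share with the exon was 27.1% ± 5.86 in O-titled livers, against 28.4% ± 7.35 in Y-titled livers. Hnrnpab-202, whose longer last exon starts with the same bases, was left out of that share and made up 58.2% ± 2.49 of O-titled and 55.9% ± 2.79 of Y-titled reads of the gene. The 72 nt exon of Hnrnpk, 2137 nt from the 3′ end and beyond the mean read of 1446 nt, had a share of 87.8% ± 4.01 in O-titled livers, against 88.7% ± 1.32 in Y-titled livers. In neither choice did the groups separate.

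Hnrnpc makes the C1 and C2 proteins by a 39 nt choice of splice site, and C2, the longer one, was coded by 65.7, 67.3, 61.8 and 62.6% of reads in O-titled livers, against 54.4, 47.8, 69.6 and 64.5% of reads in Y-titled livers. The O-titled shares lay within the range of the Y-titled ones, and the site lies 1969 nt from the 3′ end against a mean read of 1256 nt. Hnrnpc-205, a transcript of the shorter form, made up 18.6% ± 0.50 of O-titled and 26.2% ± 6.69 of Y-titled reads, the 1 of 79 transcripts of genes with several transcripts whose groups did not overlap (against 3.35% of such transcripts over all genes), with an unadjusted usage p of 0.13.

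A junction more than 50 nt behind the stop codon is a known mark of targets of nonsense-mediated decay. It was present in 2 of the 87 transcripts, Srsf2-206 and Hnrnpa2b1-202, which both carry an alternative exon in the 3′ untranslated region. Srsf2-206 has 5 exons and its last junction 217 nt behind the stop, against 3 exons and 7 nt in Srsf2-201. The 104 nt exon alone does not make up that difference. Srsf2, which is known to control its own level by such 3′ splicing, carried the 104 nt exon of Srsf2-206 in 2.60, 4.08, 2.94 and 1.24% of reads in O-titled livers, against 7.06, 2.78, 5.80 and 3.75% of reads in Y-titled livers, from 23 reads in all. Hnrnpa2b1-202, with its last junction 157 nt behind the stop, made up 34.5% ± 2.47 of O-titled and 29.1% ± 3.64 of Y-titled reads. The groups overlapped in both.

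**Figure D5:**
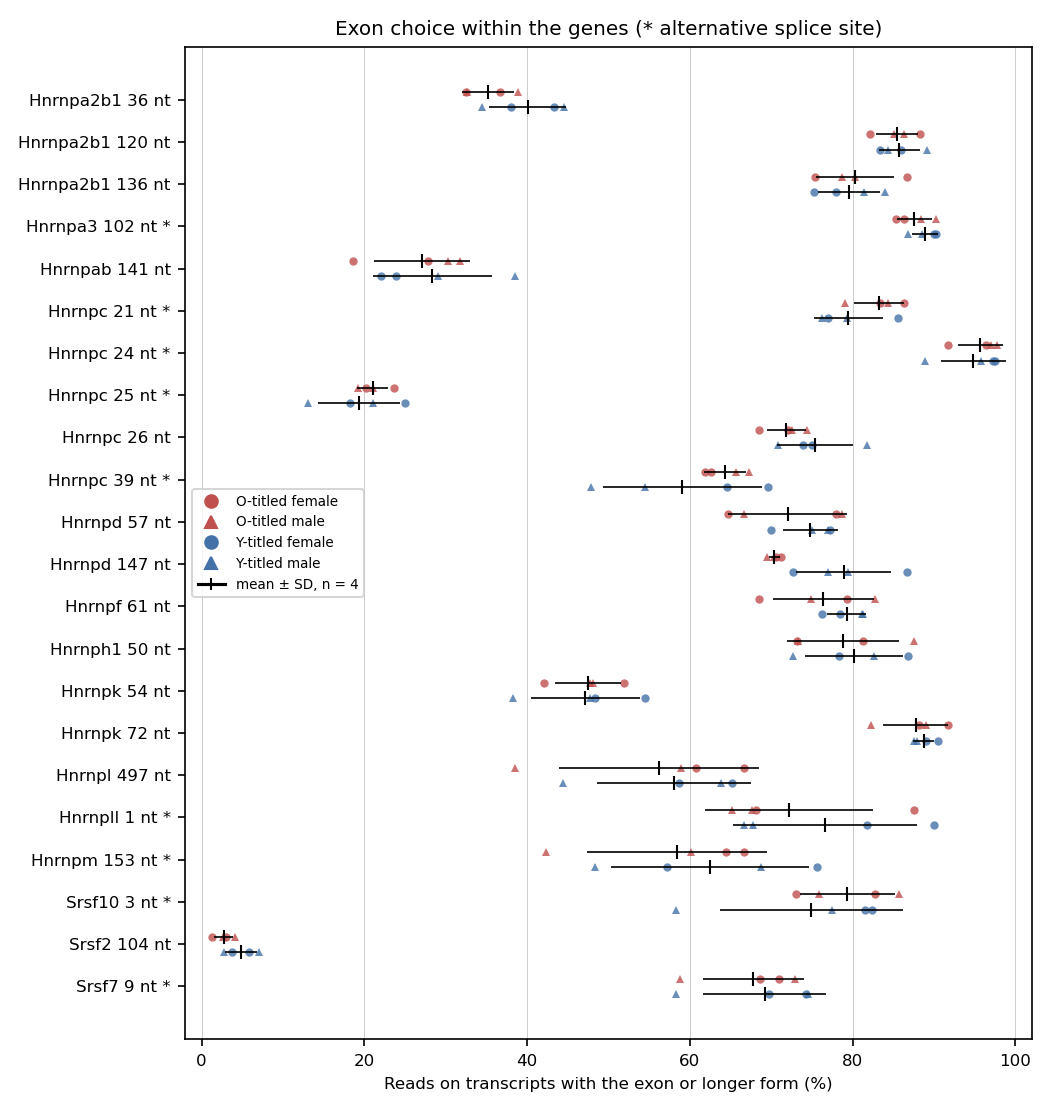
Reads on transcripts with each alternative exon, or with the longer form of a splice site (asterisk), as a percent of the reads on both forms, for 22 of the 24 choices, 1 point per library with the mean ± SD of each group (n = 4). The Hnrnpd 147 nt exon is the 1 choice of the 24 whose O-titled and Y-titled points do not overlap.

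Genes around these factors gave 1 call. Of the 7 tested kinases and importers of SR proteins, the 17 SR-related proteins, the 38 spliceosome core genes and the 10 genes of nonsense-mediated decay and the exon junction complex, 0 passed between O-titled and Y-titled livers with edgeR, DESeq2 or limma voom, and 2, 1 and 2 genes had an unadjusted p under 0.05 by these tools, where edgeR called 4.01% of all tested genes and gave 16.2% an unadjusted p under 0.05. The edgeR median log2 folds of the 4 lists were 0.022, 0.00036, -0.036 and -0.034 in that order. Of 30 other RNA-binding splicing regulators 1 rose and 0 fell, a share near the 4.01% of all tested genes, and their median was 0.10. That gene was Rbm3, the cold-inducible RNA-binding protein, with 116, 95.4, 111 and 93.1 CPM in O-titled livers, against 52.2, 43.6, 23.9 and 40.4 CPM in Y-titled livers (log2 fold 1.38, SE 0.174, edgeR adjusted p = 0.000113). Its groups did not overlap, and it passed within females and within males. Cirbp, the cold-inducible relative of Rbm3 and named here after its values were seen, averaged 12.2 ± 2.55 CPM in O-titled livers, against 9.25 ± 5.20 CPM in Y-titled livers (edgeR adjusted p = 0.665).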

How the data were processed

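Per the labels' protocols, polyadenylated liver RNA with a 5′ adapter was read directly on MinION R9.4.1 flow cells, and the submitters' processing notes name minimap2 2.24, mm10 and DESeq2, the last without a role. The authors deposited raw read counts per transcript, which summed to each library's mapped reads. How counting treated strand and reads fitting more than 1 transcript is not given in the sources used here, nor is the tool, so genes with near-identical copies are uncertain. Read lengths are a further deposited column.

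Transcript counts were summed to genes. GENCODE M21 supplied positions, transcript classes and exon sequences for 53407 of the 53983 transcripts. The 6759 genes kept by filterByExpr (minimum count 10) were tested in edgeR 4.0.16 (R 4.3.3) with TMM scaling, a robust quasi-likelihood fit with sex as covariate, and Benjamini-Hochberg adjustment at 0.05. A 4-group design, sex by title, gave the changes within each sex and their difference. Intervals at 95% confidence and standard errors were derived from the F statistic. Transcript usage was tested with diffSpliceDGE. DESeq2 1.42.0 and limma 3.58.1 were alternatives. The steps were tested on simulated data. An exon choice entered with at least 10 reads in every library and 20 reads on each form.

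The 8 libraries carry distinct animal numbers, and depth ran from 545171 to 2593200 mapped reads. Floors cover counting error only. Every member is accounted for. Values per library are given for the 6 most abundant genes of each family, the 4 largest rises and falls, and genes singled out by sex or exon choice after their values were seen. The genes and lists were chosen with earlier results of these data known. The planned test of reads on non-coding transcript classes was not run, since all listed transcripts of the set are protein coding. The exon choice of 1 gene is not reported here.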

Additional observations from a re-analysis of the deposited data

Results flagged for a closer look

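In 106 groups of 4 libraries examined, 3 held a library whose gap to the next passed the Dixon limit at 95% confidence. Chance marks about 1 in 20 such groups. Srsf11 stood at 15.4 CPM in O-titled replicate 1, below the 21.7 to 22.8 CPM of the other O-titled libraries. Hnrnpll, a regulator of CD45 exons in T cells, stood at 29.7 CPM in Y-titled replicate 2, the shallowest library, above the 18.4 to 19.7 CPM of the other Y-titled libraries. The share of Hnrnpll reads on the longer form of a splice site that differs by 1 nt was 87.5% in O-titled replicate 4, from 32 reads, above the 65.2 to 68.2% of the other O-titled libraries.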

How the results depend on the processing

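Of the 29 tested genes, 0 were called between O-titled and Y-titled livers under any of the 15 alternatives, and the lowest adjusted p was 0.0526, for Hnrnpd without Y-titled replicate 1. Hnrnph3, Hnrnpr, Srsf10 and Srsf11 have a value in only 14 of the 15, so 1 alternative covers fewer genes for each of them. The count over all genes was 600 without the low-count filter, 134 without the sex covariate, 70 after thinning each library to 545171 reads, and 154 to 294 when 1 library was left out (176 without Y-titled replicate 3 and 154 without replicate 4), beside 271. Thinning moved the median log2 fold of the set to 0.050. Rbm3 passed in 15 of 15 alternatives, at log2 folds of 1.20 to 1.55. Between females and males the count was 401 without the filter and 125 to 217 with 1 library left out (125 without O-titled replicate 2 and 127 without Y-titled replicate 1), beside 200, and 0 members were called throughout. The difference between the sexes counted 8 (without O-titled replicate 1 or Y-titled replicate 2) to 45 genes with 1 library left out, beside 26, with a median over the set of -0.067 to 0.15 and 0 members called. Transcript usage called 0 genes in each alternative, including limma diffSplice, which was added after seeing the data, as was the leave-one-out of exon shares. Signs changed in 35 of 431 member values between titles, among them Hnrnpa0 (-0.19, and 0.092 after thinning) and Hnrnph3 (0.23, and -0.075 without Y-titled replicate 4).

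Libraries with the same replicate number come from different mice. Their deviations correlated at 0.22 to 0.41 around group means, where the numbers carry sex. Around group and sex means the correlation was -0.065 for replicates 1 and 2 and -0.027 for replicates 3 and 4. There the libraries of a group and sex are mirror images, so each pair gives 1 value, whose sign depends on the numbering. With the replicate number as a block, 184 genes and 0 members were called, and transcript usage called 0. The non-coding class alternatives were not run, since no such transcript is listed. The shallowest library gave a gene such as Hnrnpr 4 reads.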
